A study of Mus musculus with 6 samples.

Results

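Lipolysis in fat cells was followed through 9 genes, of 35122 listed for the series: the triglyceride hydrolases Pnpla2, Lipe and Mgll, the ATGL cofactor Abhd5 and inhibitor G0s2, the adrenergic receptors Adrb3 and Adra2a, and the cAMP signalling genes Pde3b and Prkar2b. They were chosen by name for their place in the pathway, with earlier results of these data known. All 9 were among the 13925 genes with enough counts to be tested. Epididymal fat of male C57BL/6 mice on chow was digested with collagenase and RNA was taken from the cells that floated, 1 library per mouse, aged 10 to 11 months by the labels (the study's text describes them as older). The 3 control mice were PU.1 fl/fl, with both copies of the Spi1 gene (encoding PU.1) floxed but intact. The 3 AdipoqCre_PU.1 fl/fl mice, called aPU.1KO here, carried the same floxed gene and Cre driven by the adiponectin promoter, which acts in fat cells in every depot. A Cre-only group was not analysed here.

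Fat cells store energy as triglyceride and release it as fatty acids and glycerol through 3 hydrolases in sequence: ATGL (the product of Pnpla2) takes off the first fatty acid, HSL (Lipe) works mainly on the resulting diacylglycerol, and monoglyceride lipase (Mgll) finishes. Catecholamines start the process in mouse fat mainly through the beta-3 receptor (Adrb3), which raises cAMP and activates protein kinase A, whose main regulatory subunit in white fat is RIIbeta (Prkar2b). The alpha-2A receptor (Adra2a) lowers cAMP, PDE3B (Pde3b) degrades it on insulin's order, Abhd5 encodes the coactivator of ATGL that perilipin releases on stimulation, and G0s2 encodes a peptide that binds and inhibits ATGL.

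In aPU.1KO adipocytes 8 of the 9 genes had a higher mean level than in controls, and none passed an adjusted p of 0.05 in edgeR's quasi-likelihood test, which called 0.237% of all genes tested. An unadjusted p under 0.05 was reached by 4 of the 9, all of them higher (Adrb3, Pde3b, Pnpla2 and Lipe), where 11.9% of all genes were higher and 13.7% lower. In Pnpla2, Lipe and Prkar2b every aPU.1KO mouse lay above every control mouse. Such separation upward held for 16.7% of all genes and downward for 15.5%, which none of the 9 showed. DESeq2, the tool named in the study's methods, called Adrb3, Pnpla2 and Lipe at an adjusted p under 0.05, against 11.0% of the genes it tested, and limma-voom called 0 of the 9. The median log2 fold change (aPU.1KO over control) of the 9 genes was 0.29, beside 0.014 over all genes tested.

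The libraries held 20550252 to 69283842 counts, the deepest being control mouse 1. Spi1 was at 24.3, 6.35 and 26.7 CPM (counts scaled to a common library size with TMM factors) in controls and 3.20, 1.22 and 4.17 CPM in aPU.1KO, a log2 fold change of -2.75 (SE 0.64, edgeR adjusted p = 0.0788). These are counts of the whole gene, so reads from exons outside the floxed one are included. Adipocyte markers were abundant in every library. The 12 genes of the adipocyte list (Lpl among them) summed to 40660 to 44470 CPM in controls and 50060 to 58120 CPM in aPU.1KO, with 11 of 12 higher and Lep lower. The 16 macrophage markers (Lyz2 among them) summed to 556.3 to 1861 CPM in controls and 278.5 to 387.9 CPM in aPU.1KO, 14 of 16 being lower, and none was at 0. Control mouse 2 had the least macrophage signal of the controls. In bulk RNA, fewer cells of a type and less RNA per cell cannot be told apart.

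Because both marker lists moved with genotype, the difference of each of the 9 genes is also given on a scale that sets the summed adipocyte markers equal between libraries. On that scale the median of all genes tested moved from 0.014 to -0.33, and 3 of the 9 genes (Pnpla2, Adrb3 and Pde3b) were still higher in aPU.1KO, while Lipe (-0.063), Mgll (-0.27), Abhd5 (-0.077), G0s2 (-0.17) and Prkar2b (-0.090) turned lower and Adra2a was at -1.11.

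Before the values, the start regions of the 3 genes whose groups did not overlap are shown, since PU.1 binds DNA through purine-rich GAGGAA boxes and the letters of these windows can be read for them. The RefSeq table used here (build GRCm38.p6, 250 bases before to 50 after a transcript start) held 10 windows for 7 of the 9 genes and none for Adrb3 and Pde3b. Capitals mark GAGGAA on either strand and the E-box CACGTG. Pnpla2 has 1 window (chr7:141454938-141455237, plus strand), Lipe has 2 (chr7:25395938-25396237 and chr7:25390063-25390362, minus strand, both inside the annotated gene), and for Prkar2b the outer of 2 is printed (chr12:32061228-32061527, minus strand).
Pnpla2: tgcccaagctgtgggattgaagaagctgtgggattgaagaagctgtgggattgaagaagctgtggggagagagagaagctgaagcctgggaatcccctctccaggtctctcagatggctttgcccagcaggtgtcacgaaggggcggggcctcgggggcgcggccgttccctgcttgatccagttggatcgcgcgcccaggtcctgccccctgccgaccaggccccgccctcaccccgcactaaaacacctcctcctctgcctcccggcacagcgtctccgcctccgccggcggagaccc
Lipe, outer start: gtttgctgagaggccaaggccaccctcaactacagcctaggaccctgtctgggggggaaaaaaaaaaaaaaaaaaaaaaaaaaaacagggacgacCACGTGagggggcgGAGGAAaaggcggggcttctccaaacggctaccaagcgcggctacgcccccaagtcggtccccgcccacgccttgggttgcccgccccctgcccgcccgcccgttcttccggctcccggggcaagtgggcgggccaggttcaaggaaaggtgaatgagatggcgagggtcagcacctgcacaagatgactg
Lipe, inner start: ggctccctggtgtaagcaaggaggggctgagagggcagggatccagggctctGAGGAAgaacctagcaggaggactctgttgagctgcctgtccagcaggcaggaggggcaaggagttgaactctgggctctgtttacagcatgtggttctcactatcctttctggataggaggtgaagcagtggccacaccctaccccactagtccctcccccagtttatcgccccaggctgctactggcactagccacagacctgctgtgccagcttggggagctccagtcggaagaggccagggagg
Prkar2b, outer start: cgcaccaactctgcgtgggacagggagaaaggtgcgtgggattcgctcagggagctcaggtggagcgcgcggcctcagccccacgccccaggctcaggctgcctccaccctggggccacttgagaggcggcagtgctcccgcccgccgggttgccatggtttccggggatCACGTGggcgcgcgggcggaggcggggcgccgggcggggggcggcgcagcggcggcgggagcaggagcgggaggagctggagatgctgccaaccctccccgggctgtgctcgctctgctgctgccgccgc
Of the 7 genes with a window, GAGGAA was found only in Lipe, once in each of its windows. That motif is present, on either strand, in 28.3% of all 32851 windows. CACGTG was in 4 of the 10 windows (Lipe, Mgll, Prkar2b and Adra2a, 1 window each), against 7.15% of all windows. The full cAMP response element TGACGTCA was in 0 of the 10 (1.79% of all windows) and the GC box GGGCGG, read on both strands, in 8 of the 10 (35.7%). A match of letters is not a bound site, and no factor's binding was measured in these libraries.

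Levels can be compared between genes only per length, here as CPM per kb of merged exons. In control adipocytes Pnpla2 was highest of the 9, at 430.6 ± 20.7 CPM per kb (SD, n = 3). Mgll (326.8 ± 8.94), Prkar2b (318.7 ± 36.3) and Lipe (277.3 ± 17.9) followed, and Mgll overlapped Prkar2b and Prkar2b overlapped Lipe across mice. Within every control library, on merged exons, Prkar2b was above Lipe. G0s2 came next at 206.8 ± 15.2 CPM per kb, so that the inhibitor's transcript was of the same order as those of the hydrolases. Adrb3 (66.9 ± 28.1) and Pde3b (48.1 ± 10.8) overlapped across mice, with Adrb3 above Pde3b within every control library on merged exons. Abhd5 was at 24.2 ± 0.89, and Adra2a stood at 0.120 ± 0.0082 CPM per kb, near the bottom of what these libraries resolve. In aPU.1KO the order on merged exons was the same but for Prkar2b (379.1 ± 13.5), which lay above Mgll (344.3 ± 14.2) without overlap. With the longest transcript as the length in place of merged exons, Lipe moved from 4th to 2nd in controls, at 439.6 CPM per kb against 415.8 for Mgll. In aPU.1KO the order of Prkar2b and Mgll turned with that length (3378 and 3991 bases), Mgll lying above Prkar2b.

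**Figure D1:**
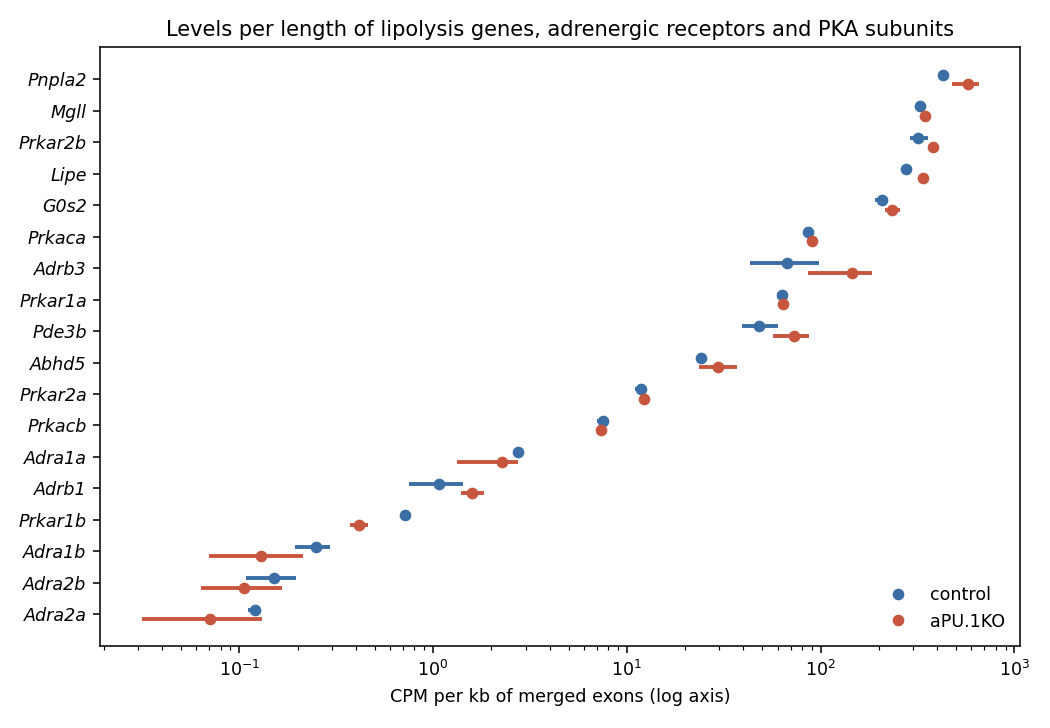
Level of each gene in CPM per kb of merged exons on a log axis, for the 9 lipolysis genes with the adrenergic receptors Adrb1, Adra1a, Adra1b and Adra2b and the protein kinase A subunits. Points are group means of 3 mice and bars run from the lowest to the highest mouse; Adrb3 lies far above every other receptor drawn and Prkar2b above every other kinase subunit, in both groups.

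ATGL, the enzyme of the first step, is encoded by Pnpla2 (ENSMUSG00000025509; chr7:141455198-141460743, GRCm38, plus strand). It was at 1251, 1279 and 1371 CPM in the control mice and 1838, 1974 and 1436 CPM in the aPU.1KO mice. The groups did not overlap, but aPU.1KO mouse 3 lay just above the highest control while mice 1 and 2 were far above. Its log2 fold change was 0.43 (SE 0.14, 95% interval 0.083 to 0.77, 1.35-fold; edgeR adjusted p = 0.132). By DESeq2 the adjusted p was 0.0436, and the alternatives ran from there to 0.9997 (the macrophage list as a covariate). On the adipocyte scale the log2 difference was 0.070.

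Lipe (ENSMUSG00000003123; chr7:25379527-25398710, minus strand), the gene of hormone-sensitive lipase, which protein kinase A phosphorylates, was at 1552, 1752 and 1593 CPM in controls and 1971, 2107 and 1889 CPM in aPU.1KO. Every aPU.1KO mouse was above every control. Lipe had a log2 fold change of 0.29 (SE 0.11, interval 0.019 to 0.55; edgeR adjusted p = 0.172, DESeq2 adjusted p = 0.0486, range over alternatives 0.0486 to 0.9997), and on the adipocyte scale it was -0.063. An antisense gene, 4732471J01Rik, overlaps 918 exon bases of Lipe, and the strand setting of the counting is not given in the sources used here.

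The last hydrolase gene differed least. Mgll (ENSMUSG00000033174; chr6:88724412-88828360, plus strand) was at 1610, 1670 and 1698 CPM in controls and 1698, 1831 and 1716 CPM in aPU.1KO. The groups met at the highest control and the lowest aPU.1KO mouse. The log2 fold change was 0.075 with an interval of -0.17 to 0.32 (SE 0.10, edgeR adjusted p = 0.674), and it was 0.037 without aPU.1KO mouse 2 and 0.040 without control mouse 1. Within each library, the ratio of Mgll to Lipe per kb was 1.20, 1.10 and 1.24 in controls and 0.998, 1.01 and 1.05 in aPU.1KO. That ratio, which no scaling of whole libraries can move, was lower in every aPU.1KO mouse. The mean log2 ratio differed by -0.21 (exact permutation test, two-sided p = 0.1, the smallest that 3 against 3 allows; 0.233 adjusted by Benjamini-Hochberg over the 7 ratios examined).

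Abhd5 and G0s2 act on ATGL in opposite senses. Abhd5 (ENSMUSG00000032540; chr9:122351608-122381524, plus strand), the coactivator, was at 145, 139 and 149 CPM in controls and 167, 221 and 140 CPM in aPU.1KO. The groups overlapped, since aPU.1KO mouse 3 fell within the control range, and the control mice were close together. Abhd5 had a log2 fold change of 0.29 (SE 0.16, interval -0.10 to 0.68, edgeR adjusted p = 0.314), or 0.086 without aPU.1KO mouse 2.

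G0s2 (ENSMUSG00000009633; chr1:193272161-193273217, minus strand), the inhibitor, was at 167, 181 and 193 CPM in controls and 186, 198 and 223 CPM in aPU.1KO. Its groups overlapped, and it differed from the enzymes in which aPU.1KO mouse stood highest, mouse 3 in place of mouse 2. The log2 fold change was 0.17 (SE 0.10, interval -0.069 to 0.41, edgeR adjusted p = 0.331), 0.096 without aPU.1KO mouse 3 and 0.10 without control mouse 1.

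The balance of inhibitor to enzyme can be read within libraries. G0s2 over Pnpla2 per kb was 0.462, 0.489 and 0.489 in controls and 0.351, 0.348 and 0.539 in aPU.1KO. In aPU.1KO mice 1 and 2 this ratio was below all controls and in mouse 3 above all controls. The mean log2 ratio differed by -0.25 (SD 0.048 in controls and 0.36 in aPU.1KO, exact permutation p = 0.4). Abhd5 over Pnpla2 (log2 difference -0.15, exact permutation p = 0.3) and Lipe over Pnpla2 (-0.13, exact permutation p = 0.3) also overlapped between groups. With 3 mice per group this test cannot go below 0.1 for any ratio. These 3 differences moved with single mice: G0s2 over Pnpla2 was -0.46 without aPU.1KO mouse 3, -0.15 without mouse 1 and -0.14 without mouse 2. Lipe over Pnpla2 ran from -0.23 (without aPU.1KO mouse 3) to -0.066 (without control mouse 2), and Abhd5 over Pnpla2 from -0.24 (without aPU.1KO mouse 2) to -0.087 (without aPU.1KO mouse 1).

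**Figure D2:**
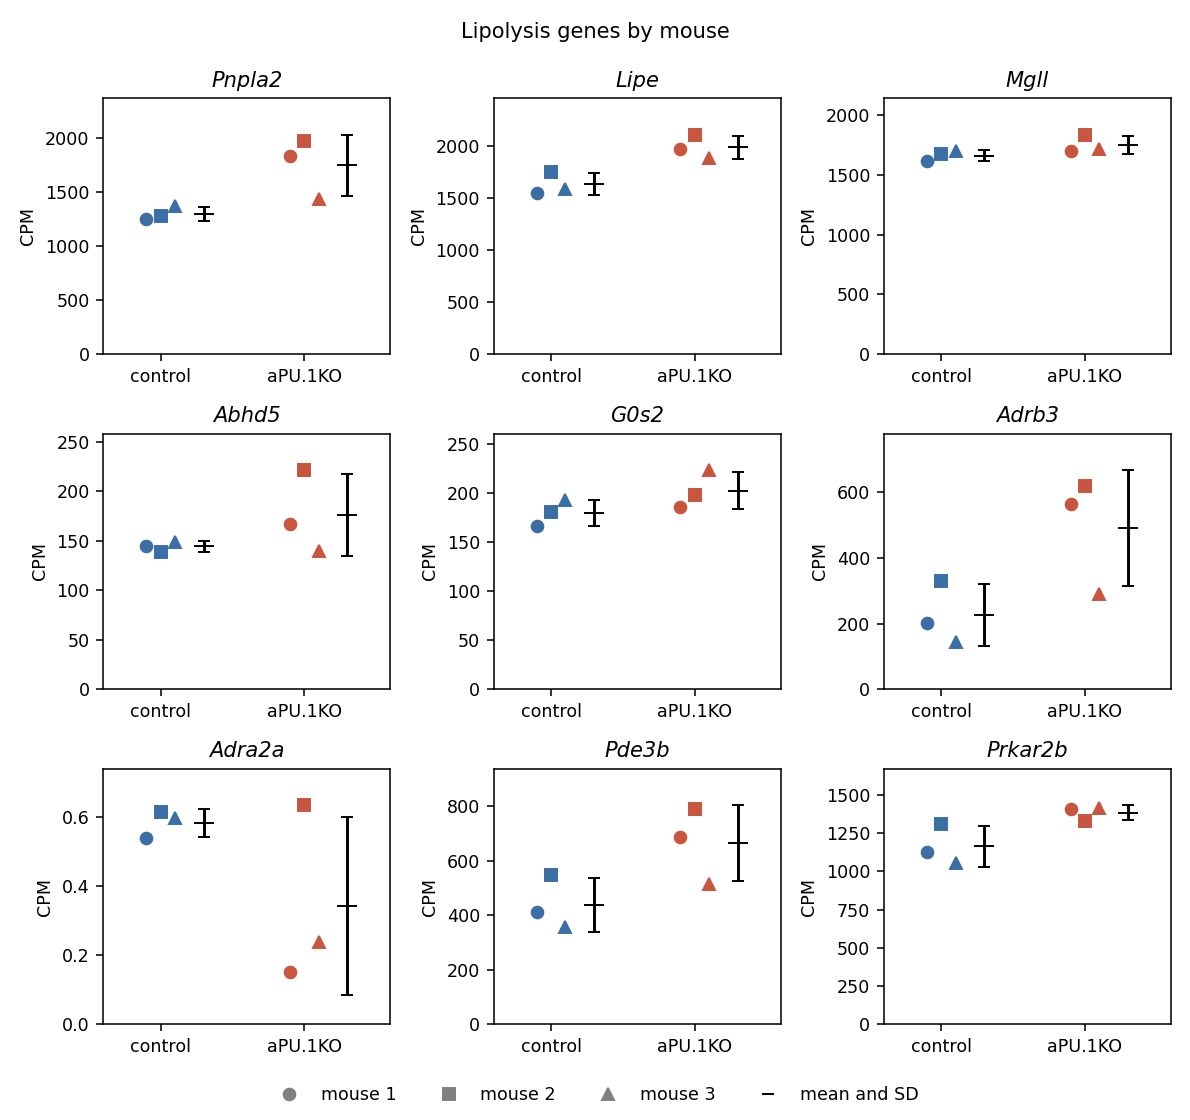
Level of each of the 9 genes in CPM (vertical axis, from 0) in the 3 control and 3 aPU.1KO mice, with the marker shape giving the mouse number within its group and the black bar the mean and SD. Pnpla2, Lipe and Prkar2b separate by group, while in Adrb3 and Pde3b control mouse 2 lies above aPU.1KO mouse 3.

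The largest upward differences were in the receptor Adrb3 and in Pde3b. Adrb3 (ENSMUSG00000031489; chr8:27225776-27250616, minus strand) was at 201.5, 330.2 and 145.4 CPM in controls and 564.4, 619.6 and 290.3 CPM in aPU.1KO. The groups overlapped only through control mouse 2 and aPU.1KO mouse 3, and the mice of each group were spread widely. Adrb3 had a log2 fold change of 1.12 (SE 0.38, interval 0.23 to 2.02, 2.18-fold; edgeR adjusted p = 0.131). By DESeq2 the adjusted p was 0.0229, and the other alternatives ran up to 0.9997. It kept a log2 difference of 0.77 on the adipocyte scale, but 0.064 with the macrophage list as a covariate. Without control mouse 2 it was 1.49, and without control mouse 3 it was 0.88. An antisense gene, Gm45470, overlaps 839 exon bases of Adrb3.

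Pde3b (ENSMUSG00000030671; chr7:114415281-114539251, plus strand), the phosphodiesterase through which insulin lowers cAMP, was at 411, 548 and 356 CPM in controls and 688, 792 and 515 CPM in aPU.1KO. It ranked the 6 mice in the same order as Adrb3, again with control mouse 2 above aPU.1KO mouse 3. Pde3b had a log2 fold change of 0.60 (SE 0.21, interval 0.096 to 1.11, 1.52-fold; edgeR adjusted p = 0.143). It was 0.25 on the adipocyte scale and -0.044 with the macrophage covariate. By DESeq2 the adjusted p was 0.0631. Within libraries Pde3b over Adrb3 per kb was 0.756, 0.614 and 0.908 in controls and 0.452, 0.473 and 0.658 in aPU.1KO. Those ratios overlapped at control mouse 2 and aPU.1KO mouse 3 (log2 difference -0.53, exact permutation p = 0.2).

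The alpha-2A receptor was scarcely present. Adra2a (ENSMUSG00000033717; chr19:54044151-54048982, plus strand) had 39, 14 and 15 counts in controls and 3, 14 and 5 counts in aPU.1KO, or 0.537, 0.613, 0.595 and 0.153, 0.633, 0.237 CPM. aPU.1KO mouse 2 was above all controls and mice 1 and 3 were below, so the groups overlapped. The log2 fold change of -0.73 had an interval of -1.98 to 0.51 (SE 0.52, edgeR adjusted p = 0.415), and it was -1.55 without aPU.1KO mouse 2 and -0.41 without aPU.1KO mouse 1. Adra2a over Adrb3 was lower in every aPU.1KO mouse (mean log2 difference -2.16, exact permutation p = 0.1, adjusted 0.233), a ratio that rests on 3 counts in aPU.1KO mouse 1.

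Prkar2b (ENSMUSG00000002997; chr12:31958476-32061296, minus strand) was at 1126, 1312 and 1055 CPM in controls and 1411, 1327 and 1415 CPM in aPU.1KO. The groups did not overlap, by a narrow margin between control mouse 2 and aPU.1KO mouse 2. The log2 fold change was 0.25 (SE 0.12, interval -0.031 to 0.53; edgeR adjusted p = 0.236) and turned to -0.090 on the adipocyte scale. Its closest relative, Prkar2a, gives a comparison inside each library. Prkar2b over Prkar2a per kb was 25.4, 29.1 and 26.3 in controls and 31.7, 30.0 and 31.6 in aPU.1KO. Every aPU.1KO mouse was above every control, with a log2 difference of 0.21 (exact permutation p = 0.1, adjusted 0.233).

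**Figure D3:**
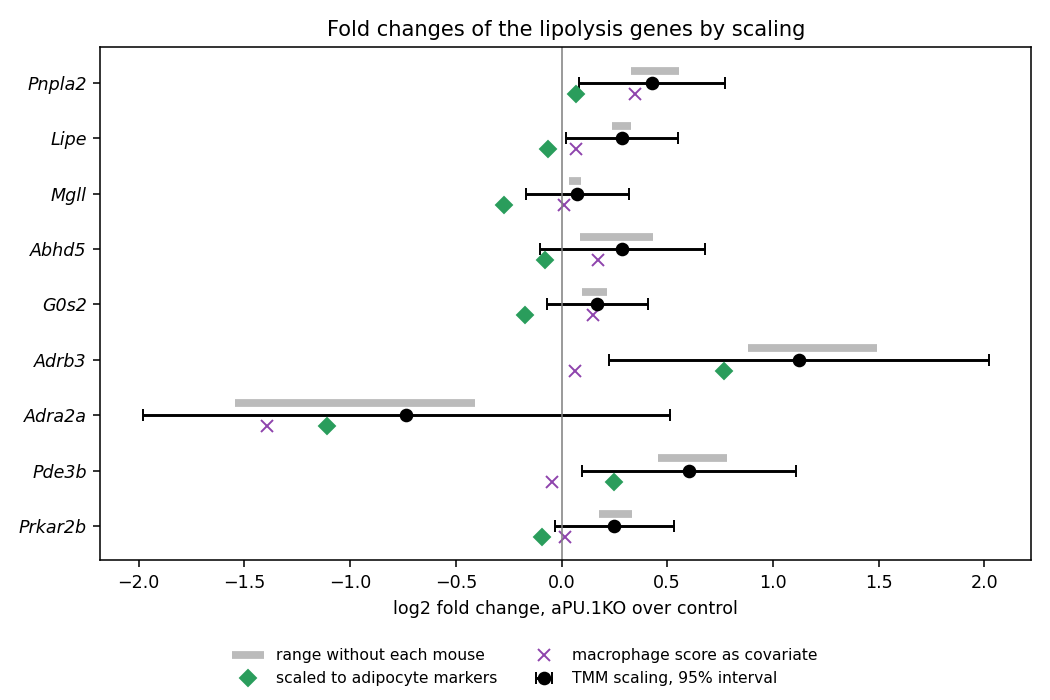
Log2 fold change (aPU.1KO over control) of each gene: black points and bars give the edgeR estimate and its 95% interval, grey bars the range when each mouse is left out, green diamonds the value with libraries scaled to adipocyte markers, and purple crosses the value with the macrophage list as a covariate. Adrb3 and Pde3b fall from 1.12 and 0.60 to 0.064 and -0.044 with that covariate, while Pnpla2 goes from 0.43 to 0.35.

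The gene differences moved with the macrophage list to unequal degrees. The mean log2 CPM of that list was 5.83, 4.28 and 5.58 in controls and 3.67, 3.21 and 3.67 in aPU.1KO. Control mouse 2, closest to the aPU.1KO mice on the list, had the highest Adrb3, Pde3b, Lipe and Prkar2b of the controls, and aPU.1KO mouse 2, lowest on the list, was highest of its group for 7 of the 9 genes. With the list as a covariate the log2 difference was 0.35 for Pnpla2, 0.17 for Abhd5, 0.15 for G0s2, 0.070 for Lipe, 0.015 for Prkar2b, 0.013 for Mgll and -1.39 for Adra2a, and every edgeR adjusted p was 0.9997. Every control lay above every aPU.1KO mouse on the list, so group and list are hard to separate in such a fit. The part that macrophage RNA has in these differences was not tested. aPU.1KO mouse 2 also had the largest share of counts in mitochondrial genes, 9.38% against 4.35% to 6.23% in the other libraries.

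**Figure D4:**
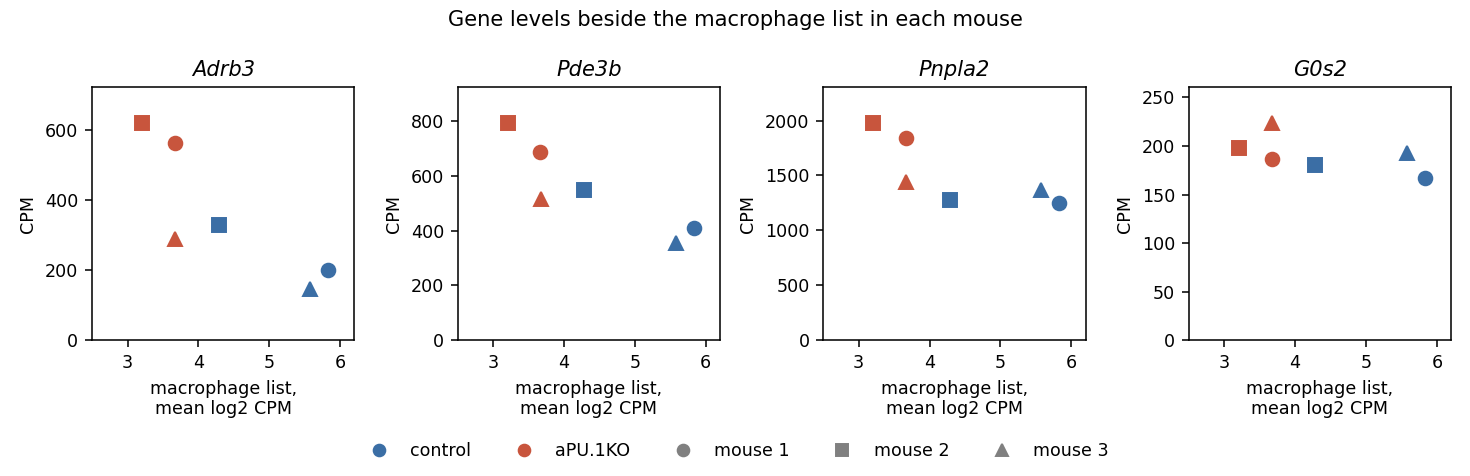
CPM of Adrb3, Pde3b, Pnpla2 and G0s2 (vertical axes, from 0) against the mean log2 CPM of 16 macrophage markers, 1 point per mouse, controls in blue and aPU.1KO in red. Control mouse 2 sits at 4.28, between the other controls (5.58 and 5.83) and the aPU.1KO mice (3.21 to 3.67), and its Adrb3 and Pde3b lie above the other controls and below aPU.1KO mice 1 and 2.

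Each member was then set among its relatives. Adrb1, which like Adrb3 encodes a receptor coupled to Gs, was at 1.07 ± 0.33 CPM per kb in controls and 1.59 ± 0.22 in aPU.1KO (SD, n = 3), far below Adrb3 in every mouse. It had a log2 fold change of 0.57 (SE 0.26, edgeR adjusted p = 0.228). The beta-3 receptor is largely restricted to fat. The alpha-1A receptor Adra1a (2.76 ± 0.14 and 2.26 ± 0.80 CPM per kb) was above Adrb1 in every control, while in aPU.1KO it overlapped Adrb1. The alpha-2 receptors Adra2b and Adra2a overlapped each other in both groups, and Adra2c, at 0.055 CPM per kb in controls, had too few counts to be tested.

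Prkar2b supplied 80.0%, 82.2% and 79.8% of the regulatory subunit level per kb in controls and 83.6%, 82.4% and 83.3% in aPU.1KO, higher in every aPU.1KO mouse. The catalytic subunit gene Prkaca was at 210, 206 and 224 CPM in controls and 218, 235 and 219 CPM in aPU.1KO (log2 fold change 0.072, SE 0.077, edgeR adjusted p = 0.597). Prkar1b, a minor subunit best known from brain, was lower in every aPU.1KO mouse (2.71 to 2.74 against 1.42 to 1.75 CPM; log2 fold change -0.78, SE 0.20, edgeR adjusted p = 0.0920). Pde3b supplied 41.2%, 48.9% and 37.9% of the summed phosphodiesterase level per kb in controls and 57.4%, 66.3% and 48.9% in aPU.1KO. The upper control and the lowest aPU.1KO share were nearly equal.

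Around the 9 genes, 142 others in 11 lists cover the same pathway, and 132 of them were tested. None passed an adjusted p of 0.05 in edgeR, where the lowest was 0.0677, and limma-voom also called 0. With no filter on low counts edgeR called 1 of the 142, which was lower, among 146 genes called over the whole table. An unadjusted p under 0.05 was reached by 19 that were higher (14.4%) and 18 that were lower (13.6%), shares near the 11.9% and 13.7% of all genes, and the median log2 fold change was 0.0019. DESeq2 called 5 higher and 13 lower of the 142, against 11.0% of all genes it tested. On the adipocyte scale edgeR called 24 of the 132, all lower, where 22.3% of all genes were called lower. Without control mouse 2 it called 12 of 135 (5 higher and 7 lower), where 8.34% of all genes were called. The medians of the 11 lists were between -0.75 and -0.13 on the adipocyte scale.

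The receptor lists did not lean to either side. Among 11 further stimulatory receptors an unadjusted p under 0.05 was reached by 1 (13.7% of all genes being lower at that threshold), Npr1, which was lower. It encodes a receptor for atrial natriuretic peptide (31.8, 32.8 and 27.1 against 15.5, 27.5 and 20.9 CPM; log2 fold change -0.52, SE 0.21, edgeR adjusted p = 0.174). Ghr, the growth hormone receptor, had the highest level of that list per kb (1590, 1878 and 1361 against 2291, 1906 and 1804 CPM, overlapping). Among 10 tested inhibitory receptors, 5 were higher and 5 lower in mean level, and the 1 with an unadjusted p under 0.05 was Hcar1, with a higher level (11.9% of all genes): it encodes the lactate receptor, which couples to Gi (79.4, 77.2 and 71.5 against 142, 98.8 and 85.4 CPM, without overlap; log2 fold change 0.52, SE 0.18, edgeR adjusted p = 0.144). Npr3, the clearance receptor for natriuretic peptides, was the most abundant there per kb and overlapped between groups (log2 fold change -0.089, SE 0.23).

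Between receptor and kinase, 12 G protein and cyclase genes were tested (5 higher and 7 lower in mean level). An unadjusted p under 0.05 was reached by 1 that was higher and 2 that were lower (11.9% and 13.7% of all genes), and none passed an adjusted p of 0.05 in edgeR, while DESeq2 called Adcy7. Gnai1, an inhibitory G protein subunit, was at 500, 601 and 435 CPM in controls and 758, 642 and 626 CPM in aPU.1KO (log2 fold change 0.40, SE 0.15, edgeR adjusted p = 0.152). Its relative Gnai2 went the other way (249, 223 and 252 against 191, 208 and 208 CPM; log2 fold change -0.25, SE 0.085, edgeR adjusted p = 0.131). Adcy7, an adenylate cyclase abundant in blood cells, had the largest log2 fold change among the 132 tested pathway genes: 44.3, 12.8 and 40.6 against 7.06, 3.30 and 7.15 CPM, a log2 fold change of -2.49 (SE 0.52, edgeR adjusted p = 0.0768). In control mouse 2 Adcy7 was low as the macrophage list was, and the cause of the Adcy7 difference was not tested.

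Most other phosphodiesterases had lower mean levels in aPU.1KO. Of 16 tested, 14 were lower in mean level and the list's median log2 fold change was -0.28 (-0.44 to -0.27 without 1 mouse). An unadjusted p under 0.05 was reached by 5 that were lower and 1 that was higher (13.7% and 11.9% of all genes). None passed an adjusted p of 0.05 in edgeR, while DESeq2 called Pde3a, Pde2a and Pde10a. The higher one, named after its value was seen, was Pde1a, at 37.8, 47.7 and 31.0 against 50.6, 64.3 and 54.9 CPM without overlap (log2 fold change 0.55, SE 0.17, edgeR adjusted p = 0.116). Pde3a, the other member of the PDE3 family, was at 9.93, 10.4 and 6.62 CPM in controls and 2.80, 5.51 and 3.69 CPM in aPU.1KO (log2 fold change -1.17, SE 0.30, edgeR adjusted p = 0.0887). Pde10a (-0.94, SE 0.27) and Pde2a (-0.57, SE 0.17), which both cleave cAMP and cGMP, were also lower in every aPU.1KO mouse, at edgeR adjusted p of 0.102 and 0.105. Pde2a was the most abundant of this list per kb, at 117 to 135 CPM in controls and 64.1 to 97.8 CPM in aPU.1KO. The sum of the list was 427.3 to 437.0 CPM in controls and 289.9 to 390.8 CPM in aPU.1KO, without overlap.

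Grk5, a kinase that phosphorylates activated receptors, had the lowest p of the tested pathway genes. It was at 52.2, 45.0 and 46.6 CPM in controls and 32.2, 29.0 and 27.3 CPM in aPU.1KO (log2 fold change -0.70, SE 0.098, edgeR adjusted p = 0.0677, DESeq2 adjusted p = 2.4e-06). Arrb2, a beta-arrestin, was lower in every aPU.1KO mouse (log2 fold change -0.66, SE 0.20, edgeR adjusted p = 0.110), and DESeq2 called it as well. The other 9 genes of the desensitization list had an unadjusted p of 0.05 or more. So 2 of 11 were lower at that threshold, where 13.7% of all genes were. Trib1 was uneven between mice, at 141, 226 and 30.7 CPM in aPU.1KO against 67.0 to 80.2 CPM in controls. Among 18 kinase subunits and anchors, an unadjusted p under 0.05 was reached by 3 that were lower and 1 that was higher (13.7% and 11.9% of all genes). Akap13 was lower (149, 147 and 155 against 106, 99.8 and 125 CPM; log2 fold change -0.45, SE 0.10, edgeR adjusted p = 0.0783) and Akap7 higher (0.53, SE 0.16, edgeR adjusted p = 0.112), neither overlapping between groups. DESeq2 called Akap13 and Prkar1b.

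Genes of the droplet surface and of other lipases mostly lay on the same side as Pnpla2 and Lipe. Of 10 droplet partners 8 were higher in mean level, 2 of them at an unadjusted p under 0.05 (11.9% of all genes), and DESeq2 called only Cidec. Plin1, the perilipin that holds Abhd5, was at 2042, 2226 and 2075 against 2669, 2640 and 2368 CPM (log2 fold change 0.28, SE 0.12, edgeR adjusted p = 0.195), and Plin5 at 5.95, 6.13 and 6.86 against 7.72, 8.95 and 8.48 CPM (0.41, SE 0.14, edgeR adjusted p = 0.130). Cidec, a droplet fusion protein and the most abundant of the list per kb, was also higher in every aPU.1KO mouse (log2 fold change 0.30, SE 0.13, edgeR adjusted p = 0.205). Plin1 and Cidec belong to the adipocyte marker list as well, so they help to set the adipocyte scale.

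Among 17 tested other lipases and regulators of ATGL, an unadjusted p under 0.05 was reached by 7 that were higher and 1 that was lower (11.9% and 13.7% of all genes). DESeq2 called 2 higher (Ces1d and Ddhd2) and 2 lower (Lipa among them) of the 20 genes of the list. Ces1d, a carboxylesterase that hydrolyses triglyceride in fat and liver, was at 526, 664 and 541 CPM in controls and 932, 1019 and 796 CPM in aPU.1KO (log2 fold change 0.67, SE 0.14, edgeR adjusted p = 0.0775). Ddhd2, a lipase with triglyceride activity in brain, gave 0.61 (SE 0.13, edgeR adjusted p = 0.0783). Lipa, the lysosomal acid lipase abundant in macrophages, was the 1 that was lower: 292, 106 and 270 against 97.4, 64.2 and 89.3 CPM (log2 fold change -1.41, SE 0.38, edgeR adjusted p = 0.0942). Its lowest control was mouse 2, as for Adcy7, and the cause was not tested here either. On the adipocyte scale the median of this list went from 0.19 to -0.16 and that of the droplet list from 0.15 to -0.20. Without aPU.1KO mouse 1 the lipase median was 0.097, and without aPU.1KO mouse 3 the droplet median was 0.24.

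Downstream, all 5 tested genes for release of glycerol and fatty acids had a higher mean level, 2 of them at an unadjusted p under 0.05 (11.9% of all genes). Slc27a1, a fatty acid transporter, was at 317, 301 and 327 against 445, 499 and 401 CPM (log2 fold change 0.51, SE 0.10, edgeR adjusted p = 0.0764), and Fabp4, the fatty acid carrier of adipocytes, gave 0.44 (SE 0.18, edgeR adjusted p = 0.190). DESeq2 called both. In the insulin arm, 9 of 11 genes were higher in mean level, and of 5 with an unadjusted p under 0.05, 4 were higher (11.9% of all genes). Among them were Ptpn1, a phosphatase that opposes the insulin receptor (log2 fold change -0.39, SE 0.12, edgeR adjusted p = 0.107) and the kinase Akt2 (0.33, SE 0.12, edgeR adjusted p = 0.145). In the insulin arm DESeq2 called only Ptpn1. On the adipocyte scale the medians of these lists turned from 0.099 to -0.25 and from 0.23 to -0.13. Without 1 mouse the release median was 0.034 to 0.16 and the insulin median 0.17 to 0.36. With the macrophage covariate they were 0.52 and -0.097.

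Genes known to respond to cAMP mostly had lower mean levels. Of 11 tested, 8 had a lower mean level in aPU.1KO (list median -0.40), and the 3 with an unadjusted p under 0.05 were all lower (13.7% of all genes). Nr4a1 (log2 fold change 0.41), Ppargc1a (0.42) and Fgf21 (0.078) had higher mean levels, each at an unadjusted p of 0.05 or more. Without 1 mouse the list median ran from -0.56 to -0.27, and with the macrophage covariate it was -0.26. Sik1, a kinase induced through CREB, was at 71.9, 64.0 and 59.6 against 32.2, 52.9 and 46.7 CPM (log2 fold change -0.57, SE 0.18, edgeR adjusted p = 0.120). Crem (-0.32, SE 0.12, edgeR adjusted p = 0.165) and Dio2 (2.67, 2.58 and 2.38 against 1.57, 0.362 and 0.663 CPM; -1.57, SE 0.49, edgeR adjusted p = 0.115) were lower in every aPU.1KO mouse too. DESeq2 called Sik1 and Dio2. Angptl4, the most abundant of the list per kb, overlapped between groups (log2 fold change -0.40, SE 0.27). These are steady-state levels in isolated cells, and neither cAMP nor lipolysis was measured in these libraries.

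**Figure D5:**
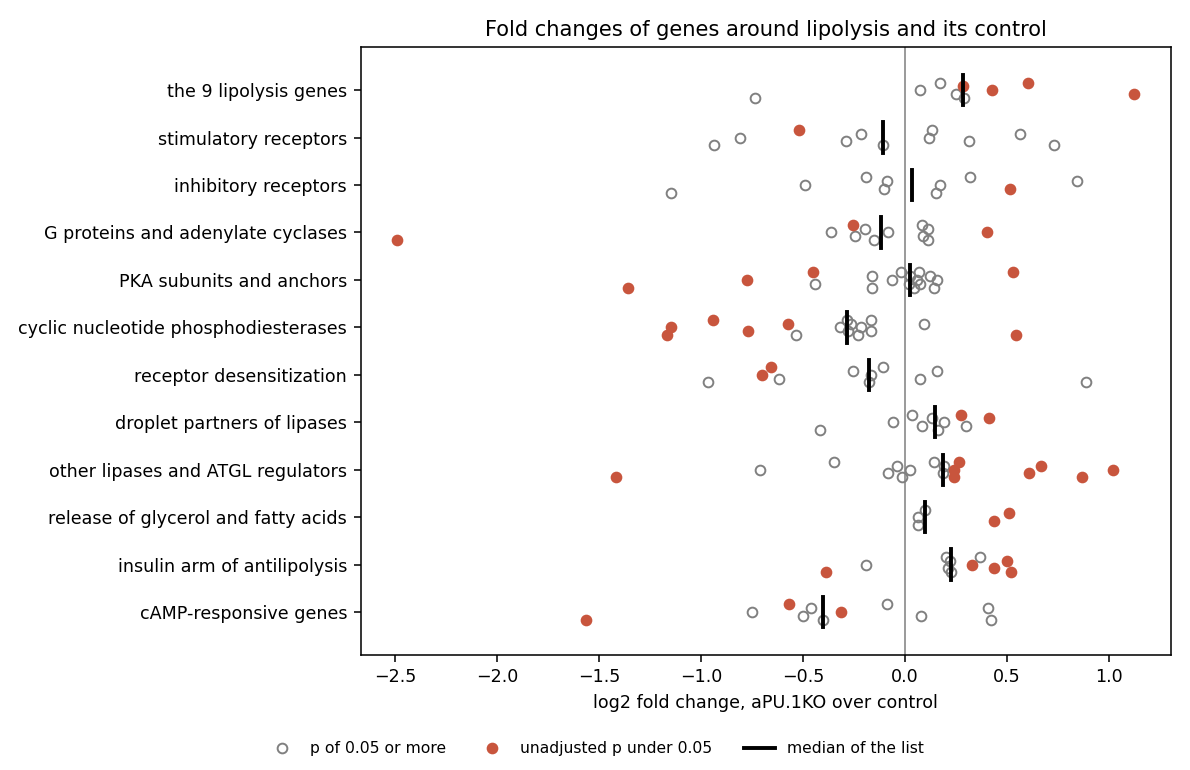
Log2 fold change (aPU.1KO over control) of every tested gene of the 9 lipolysis genes and the 11 surrounding lists; each circle is 1 gene, filled where the unadjusted edgeR p is under 0.05, and the black bar is the list's median. The 9 genes lie mostly to the right (median 0.29), phosphodiesterases (-0.28) and cAMP-responsive genes (-0.40) mostly to the left, and no gene passed an adjusted p of 0.05 in edgeR, while DESeq2 called 3 of the 9.

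Over the 6 mice, the genes most like each of 3 members were found by Pearson's r of log2 CPM among 11886 genes, as a description over points that share libraries and genotype. The highest of so many r over 6 points can lie near 1 by selection alone. Pnpla2 was most like Cep95 (r = 0.9996), Dhodh (0.998) and Apip (0.998), none of them a gene of the pathway lists. Adrb3 was most like Trub2 (0.996), Mblac2 (0.996) and, next after them, Pde3b (0.995). G0s2 was most like Mtfp1 (0.989), Cox17 (0.970) and Fam53a (0.967). Among the members themselves, r with Adrb3 was 0.92 for Lipe, 0.83 for Pnpla2 and 0.17 for G0s2, with Adra2a below the level needed for this comparison.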

How the data were processed

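RNA of 6 mice, 3 per group, was sequenced as 1 library each. The authors quantified reads with Salmon (option validateMappings), summed transcripts to genes and deposited expected counts as whole numbers, without normalization. The submitters' processing notes name GRCm38; the Salmon version, annotation and strand setting are not given in the sources used here. Gene models, lengths and overlaps came from GENCODE M21 (35031 of 35122 identifiers matched a symbol; the rest hold 0.0367% of counts).

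Groups came from the genotype labels. Genes were filtered with filterByExpr, scaled by TMM factors and compared in edgeR 4.0.16 (glmQLFit defaults, glmQLFTest; R 4.3.3), with p-values adjusted over all 13925 genes tested (common biological coefficient of variation 0.194). Intervals cover 95%. DESeq2 1.42.0 and limma-voom (limma 3.58.1), other scalings and filters, thinning of the deepest library to 22770714 counts, a macrophage covariate and leaving out each mouse were alternatives. Ratios within libraries used CPM per kb. The adipocyte scale divides by the summed counts of 12 adipocyte markers. No pair of libraries in a group held the same counts (chi-square per degree of freedom 18.96 or more). Total counts of 20550252 to 69283842 make counting error small beside the spread between mice for the 9 genes other than Adra2a. Nothing in the labels tells litters or preparation days, so p-values measure the spread between these mice.

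The 9 genes, the 11 pathway lists and the 11 cell type lists were chosen with earlier results of these data known. Genes named are the 9, Spi1, in each pathway list the most abundant per kb and up to 3 of lowest p among those at an unadjusted p under 0.05, the 3 most like Pnpla2, G0s2 and Adrb3, and the marker highest in CPM of each cell type list with any at 0 throughout. Lep, Prkar2a, Nr4a1, Ppargc1a, Fgf21 and the other receptors and kinase subunits were named beside them after their values were seen. A few genes that this rule would name are not reported here. On simulated counts for this comparison (13925 genes, 200 changed by 2 on the log2 scale) edgeR called 190 of the 200 and 15 unchanged genes. The planted changes were larger than any among the 9 genes, and the counts were drawn at the trended dispersion alone. This simulation therefore does not measure power for the 9 genes. Near-identical sequence (95% over 100 bases or more) was sought with BLAST 2.17.0: Pde3b shares such a stretch of 142 bases with Hps3. Exons of Mgll and Abhd5 also overlap antisense genes (167 and 950 bases), and those of Lipe and Adrb3 as given in the text. Figures used matplotlib 3.10.9.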

Additional observations from a re-analysis of the deposited data

How the results depend on the processing

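Of the 9 genes, none passed an adjusted p of 0.05 in edgeR or limma-voom under any alternative, and DESeq2 called Pnpla2 (log2 fold change 0.41, adjusted p = 0.0436), Lipe (0.27, 0.0486) and Adrb3 (1.11, 0.0229). Scaling to adipocyte markers lowers every gene by about the same amount (the median of all genes goes from 0.014 to -0.33), and by that construction Lipe (-0.063), Mgll (-0.27), Abhd5 (-0.077), G0s2 (-0.17) and Prkar2b (-0.090) changed sign. The macrophage covariate turned Pde3b to -0.044, and the cause was not tested. Adra2a had no value where 10 counts in every library were required. The number of genes called over the whole table was 33, and 3138 on the adipocyte scale, 5 with at least 10 counts in every library, 146 with no filter, 1833 with DESeq2, 0 with the macrophage covariate, and 0 to 1193 without 1 mouse (0 without control mouse 1, 1193 without control mouse 2). Pathway genes at an unadjusted p under 0.05 numbered 37, and 58 on the adipocyte scale, 4 with the covariate and 17 to 43 without 1 mouse (17 without control mouse 1 and 23 without control mouse 3). With the longest transcript as the length, control levels in CPM per kb moved to 495.4 for Pnpla2, 439.6 for Lipe, 415.8 for Mgll, 45.7 for Abhd5 and 66.7 for Pde3b. Apart from the adipocyte scale, which shifts all lists alike, the medians of 0 to 6 of the 11 lists moved beyond the spread between mice. Ratios within libraries kept their direction without any 1 mouse, but those over Pnpla2 moved in size as given above. No paired analysis was possible because the labels give each mouse its own number and do not say which mice shared a litter. Among the 9 genes depth limits Adra2a, with 3 to 39 counts.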

Other observations

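Markers of other cell types of fat tissue, blood, liver and testis were read in the same libraries. All 10 fibroblast and progenitor markers were lower in mean level (Col3a1 among them), and their sum was 1827 to 2336 CPM in controls and 1002 to 1504 CPM in aPU.1KO. The 7 endothelial markers (Cdh5 among them) summed to 537.2 to 801.6 against 323.7 to 704.5 CPM and the 6 mural markers (Rgs5) to 473.4 to 708.8 against 374.4 to 505.4 CPM, all lower in mean level with overlapping sums. Of the mural markers 1 passed an edgeR adjusted p of 0.05, as did 1 of the 16 macrophage markers (0.237% of all genes were called). Mesothelial markers (Upk3b) summed to 4.68 to 17.7 against 6.66 to 8.86 CPM, and T and B cell markers (Cd79a) to 4.07 to 5.99 against 2.03 to 3.55 CPM. Erythrocyte markers (Hbb-bs) overlapped, at 586.5 to 785.6 against 351.7 to 1144 CPM.

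Testis and epididymis markers were near 0: Lcn5, Lcn8, Prm1 and Tnp1 were at 0 in every library and the list, with Crisp1, summed to at most 1.15 CPM. Brown adipocyte markers (Cox8b) summed to 14.5 to 17.6 against 11.3 to 22.3 CPM. In the hepatocyte list 9 of 10 genes were lower in mean level, 3 of them past an edgeR adjusted p of 0.05 (0.237% of all genes), while Cyp2e1, which white fat also expresses, was higher in mean level (409, 928 and 142 against 1371, 3156 and 711 CPM; log2 fold change 1.82, SE 0.77, edgeR adjusted p = 0.195).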
